A study of Homo sapiens with 2 samples.

Results

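Receptor tyrosine kinases of lung cancer were examined across the HOTAIR knockdown arrays of SBC-3 cells. The receptors were chosen by name as genes that are mutated, amplified or targeted in lung cancer, namely EGFR, ERBB2, ERBB3, MET, IGF1R, FGFR1, KIT, PDGFRA, PDGFRB and AXL, and the rule used no measured value. Their probes were those on both arrays whose RefSeq transcript accession belongs to one of these symbols. This gave 10 genes with 16 probes and 61 spots, out of 19061 named genes, 42402 probes and 58717 spots that are not controls.

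SBC-3 is an adherent human cell line established from small-cell lung cancer (SCLC). Gene expression was measured on 2 one-colour arrays, 1 of cells transfected with #1 siHOTAIR, a small interfering RNA (siRNA) against the long noncoding RNA HOTAIR, and 1 of control cells transfected with siGFP, directed against green fluorescent protein. Both groups thus went through transfection, and only this 1 siRNA against HOTAIR was put on an array. The time between transfection and RNA extraction was not given for the arrays in the sources used here. With 1 array per condition the conditions could not be tested against each other, no P-value is given, and the siRNA, the culture and the array cannot be told apart. Both arrays lay on 1 slide.

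A receptor tyrosine kinase spans the cell membrane, binds a growth factor outside the cell, pairs with another receptor and phosphorylates tyrosines on its inner part. Adaptor proteins dock there and pass the signal to the RAS, RAF, MEK and ERK kinases and to PI3K and AKT, which drive growth and survival, while phosphatases and ubiquitin ligases shut the signal off. In lung adenocarcinoma several of these receptors are oncogenes. SCLC is known for FGFR1 amplification in some tumors and for KIT together with its ligand, stem cell factor.

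Of the 10 receptors, 5 gave a signal well above background on both arrays, a mark that the extraction software sets for each spot. They were ERBB2, MET, IGF1R, FGFR1 and AXL. EGFR reached that level on the siGFP array only, in 1 of the 2 spots of 1 probe. The remaining 4, ERBB3, KIT, PDGFRA and PDGFRB, were not well above background in either condition, which gives an upper limit to their signal and does not show that they are absent. None of the 6 receptor probes that could be compared differed by 2-fold or more between the cells given #1 siHOTAIR and those given siGFP. Over all 24117 probes compared, 3.3% were at least 2-fold higher after #1 siHOTAIR and 4.1% were at least 2-fold lower, so a count of 0 among 6 probes lies near the background. The median log2 ratio of the scaled signals, #1 siHOTAIR over siGFP, was 0.03 for the 6 probes and 0.01 for all probes compared, and for the receptors it was 0.14 over the 5 measured on both arrays and 0.07 with the dim side of EGFR at its bound.

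The arrays carry no probe sequence in the deposited tables, and the promoters of MET and KIT are shown instead. They belong to the receptor with the largest difference measured on both arrays and to a receptor that was below background while the signal of its ligand fell (both described further down). The windows are the 250 bases before the gene start, written 5′ to 3′ from RefSeq on GRCh38.p14. Capitals mark GC boxes, the letters GGGCGG or, for the other strand, CCGCCC. The MET window lies at chr7:116671946-116672195 on the plus strand and the KIT window at chr4:54657707-54657956 on the plus strand.
MET: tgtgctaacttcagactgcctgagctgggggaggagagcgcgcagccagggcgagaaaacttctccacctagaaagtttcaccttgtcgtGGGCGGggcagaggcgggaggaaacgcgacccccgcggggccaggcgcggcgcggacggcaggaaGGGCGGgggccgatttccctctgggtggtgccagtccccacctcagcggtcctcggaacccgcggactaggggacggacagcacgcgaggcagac
KIT: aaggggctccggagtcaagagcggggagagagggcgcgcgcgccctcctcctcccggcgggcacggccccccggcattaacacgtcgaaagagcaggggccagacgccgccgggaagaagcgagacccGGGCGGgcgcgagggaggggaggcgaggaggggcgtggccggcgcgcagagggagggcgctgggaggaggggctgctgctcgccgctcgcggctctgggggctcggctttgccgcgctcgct
The MET window holds 2 GC boxes and 24 CpG dinucleotides, and 68.4% of its bases are G or C. The KIT window holds 1 GC box and 34 CpG, with 76.4% G or C. Of 35116 promoter windows of this length, 42.6% hold at least 1 GC box, and the median window has 11 CpG and 58% G or C. RefSeq windows were found for 8 of the receptors, 11 windows in all, and 7 of these held a GC box. A match describes the letters and is not a measured binding site.

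The signal of HOTAIR, the targeted RNA, was 108 after #1 siHOTAIR and 244 after siGFP on its 1 spot. This is a log2 ratio of -1.22 with a measurement SD of 0.22, or 57.2% lower. Here and below, a signal is the background-corrected brightness of a probe in arbitrary units, as deposited. A log2 ratio is the signal on the #1 siHOTAIR array over that on the siGFP array after each array was scaled to its 75th percentile, 650.3 and 629.9, so 1 stands for 2-fold higher. The measurement SD comes from repeated spots of the same array at a similar signal and says nothing of the spread between cultures. Signals of different probes were not set against each other, since probes bind with different strength.

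**Figure D1:**
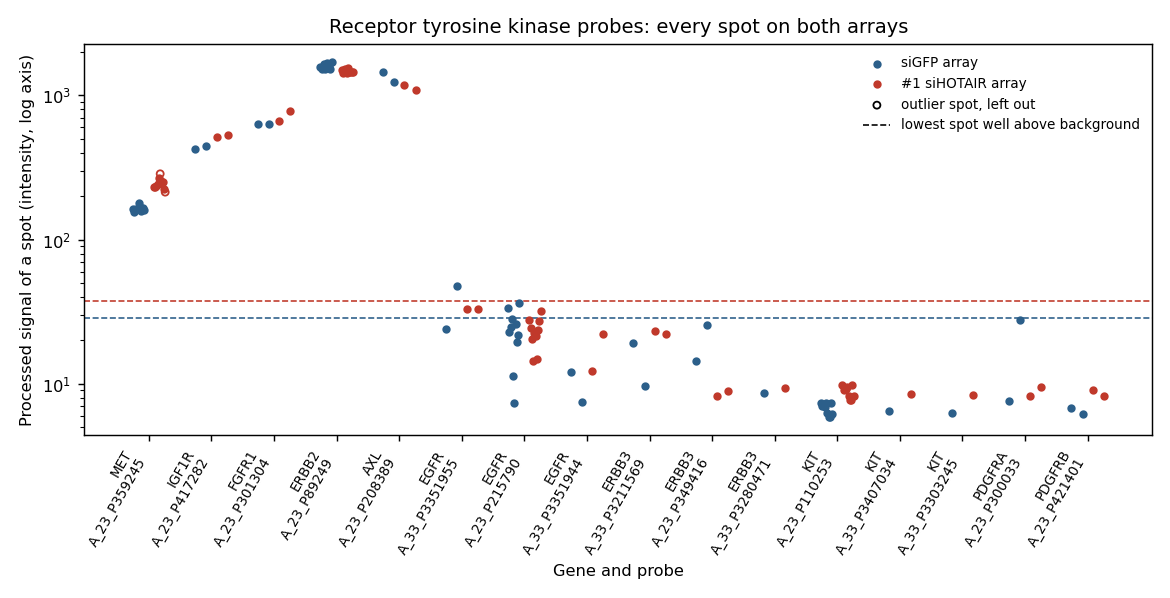
Processed signal (arbitrary units, log axis) of every spot of the 16 receptor probes on the siGFP array (blue) and the #1 siHOTAIR array (red), with gene and probe on the horizontal axis. Open circles are the 2 outlier spots of MET that were left out, and the dashed lines are the lowest signals of any spot well above background, 37.3 and 28.6. The spots of MET, IGF1R, FGFR1, ERBB2 and AXL lie above both lines on both arrays, and those of ERBB3, KIT, PDGFRA and PDGFRB lie below them.

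MET, the receptor of hepatocyte growth factor and an amplified or mutated oncogene in some lung adenocarcinomas, showed the largest difference among the receptors measured on both arrays. Its probe is printed in 10 spots. The lowest, median and highest spot were 225, 238 and 267 after #1 siHOTAIR, over the 8 spots not marked as outliers, and 155, 163 and 179 after siGFP. All spots of the #1 siHOTAIR array were brighter than all spots of the siGFP array. The mean signal was 242 against 164, a log2 ratio of 0.52 with a measurement SD of 0.08, or 43.1% higher. The ratio of single spots ran from 0.39 to 0.66 and was above 0 in 8 of 8. It averaged 0.54 in the first rows of the array (shaded in the plot of spot ratios by row) and 0.52 in the other rows.

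The difference in MET was larger than the error between spots but stayed below 2-fold. Of the 685 probes with 10 spots that could be compared, 36 (5.26%) had a ratio as high or higher, and of 3402 probes of like signal, 332 (9.76%) did. Like signal means a mean scaled log2 signal within 0.5. The log2 ratio of MET lay between 0.37 and 0.65 over the alternatives in processing. HGF, its ligand, was not well above background on either array, with signals of 9.13 and 8.09 after #1 siHOTAIR and 6.99 and 6.14 after siGFP on its 2 probes. These are log2 ratios of 0.34 and 0.35, and the median of all probes below background on both arrays was 0.34.

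IGF1R, the receptor of the insulin-like growth factors, was the next highest in ratio. Its 2 spots read 518 and 536 after #1 siHOTAIR and 427 and 447 after siGFP. The log2 ratio was 0.22 with a measurement SD of 0.08, a 1.17-fold difference. With spike-in scaling the ratio of IGF1R was 0.36. Of probes of like signal, 27.4% had a ratio as high or higher.

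FGFR1, a fibroblast growth factor receptor, gave 664 and 777 after #1 siHOTAIR and 630 and 631 after siGFP. The spots of the #1 siHOTAIR array differed from each other by more than the lower one differed from the control. The log2 ratio was 0.14 with a measurement SD of 0.08, and 36.4% of probes of like signal were as high or higher. The ratio of FGFR1 depended on the scaling, with 0.28 when the arrays were scaled to the spike-in RNA.

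ERBB2 (HER2), which binds no ligand itself and pairs with the other members of the EGFR family, was slightly lower. The lowest, median and highest of its 10 spots were 1424, 1458 and 1556 after #1 siHOTAIR and 1513, 1581 and 1712 after siGFP. These signals overlapped, and they no longer did once each array was scaled. The spot ratios ran from -0.28 to -0.09, with 0 of 10 above 0, and the log2 ratio of the means was -0.15 with a measurement SD of 0.03, or 1.11-fold lower. This small difference depended on the scaling, since it was -0.02 with spike-in scaling. The receptor probes with 10 spots that were well above background on both arrays, MET and ERBB2, had spots that did not overlap after scaling. The same held for 41.9% of all 652 probes of this kind, so a lack of overlap was common on these arrays.

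AXL, the receptor of GAS6 and protein S that is known from resistance to EGFR inhibitors, was the lowest in ratio. Its 2 spots read 1179 and 1091 after #1 siHOTAIR and 1465 and 1247 after siGFP. The log2 ratio was -0.30 with a measurement SD of 0.06, or 18.7% lower. The 2 spots within each array differed by more than that SD, and an error taken from the spread of those spots on each array was 0.13. The ratios of the 2 spots were -0.36 and -0.24. Of probes of like signal, 14.3% were as low or lower. With spike-in scaling the ratio of AXL was -0.16.

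EGFR, the receptor of EGF and the target of the first kinase inhibitors in lung cancer, had 3 probes for different transcripts. The probe of NM_201282 read 33.2 and 32.8 after #1 siHOTAIR and 23.8 and 47.5 after siGFP, where only the brighter spot was well above background. Its mean signals were 33.0 and 33.6, and no fold is given, since the bound was under 1. The 10 spots of the NM_005228 probe had a lowest, median and highest signal of 14.3, 23.0 and 32.0 against 7.35, 23.8 and 36.1, and 1 spot of the siGFP array was well above background. The NM_201283 probe read 12.4 and 22.2 against 12.0 and 7.49. No difference in EGFR was detectable at these signals.

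ERBB3, the partner of ERBB2 that binds neuregulins, had 3 probes below background. The probe of NM_001005915 read 23.1 and 22.2 after #1 siHOTAIR and 19.1 and 9.68 after siGFP. The probes of NM_001982 read 8.20 and 8.95 against 14.4 and 25.6 and, on 1 spot, 9.39 against 8.64. These probes moved in different directions within the background.

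KIT, the stem cell factor receptor, also had 3 probes below background. The lowest, median and highest of the 10 spots of its main probe were 7.71, 9.15 and 9.82 after #1 siHOTAIR and 5.86, 6.95 and 7.42 after siGFP. The spot ratios all lay between 0.33 and 0.36. That is the offset of probes below background on both arrays as a whole, whose median log2 ratio was 0.34 at median signals of 9.34 and 7.32, and KIT lay at it. The single spots of its other probes read 8.55 against 6.47 and 8.32 against 6.30.

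PDGFRA and PDGFRB, the platelet-derived growth factor receptors of mesenchymal cells, were below background as well. PDGFRA read 8.22 and 9.57 after #1 siHOTAIR and 7.63 and 27.8 after siGFP. PDGFRB read 9.09 and 8.17 against 6.82 and 6.18, a log2 ratio of 0.36, near the 0.34 of all probes below background on both arrays. Markers of fibroblasts, the cells known for both receptors, were above background for 2 of 6 genes, COL1A1 and COL1A2, with log2 ratios of 0.96 and -0.04, and with spike-in scaling the first passed 2-fold and the second turned positive.

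The array was set against the labelled cell type. Among SCLC markers, NEUROD1 and YAP1, which mark subtypes of SCLC, were well above background on both arrays, with log2 ratios of -0.85 and -0.10. CHGA, a protein of neuroendocrine granules, was above background on the #1 siHOTAIR array only, with spots of 69.1 and 75.4 against 7.57 and 13.7, at least 2.44-fold higher. NCAM1 was also above background on that array only, in 1 of 2 spots, and INSM1, SYP, UCHL1 and POU2F3 on neither. Epithelial markers were above background on at least 1 array for 4 of 5 genes, endothelial markers for 1 of 4 and leukocyte markers for 2 of 5. On both arrays the counts were 2, 1 and 2. EPCAM, an epithelial marker, was above background on 1 array only. Its spots read 8.59 and 9.83 after #1 siHOTAIR against 81.5 and 7.72 after siGFP. PTPRC, a leukocyte marker, was compared on a probe with 1 spot, 106 against 61.0. Another PTPRC probe had a log2 ratio of -0.83, with spots of 8.38 and 17.3 against 6.45 and 66.3. The remaining PTPRC probes read 8.21 against 6.21 and 9.16 against 6.86. The part of these genes in the receptor ratios was not tested. In RNA of a whole culture, fewer cells with a transcript and less of it per cell cannot be told apart.

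Among 22 growth factors listed as ligands, 14 could be compared, 1 rose and 1 fell by 2-fold or more at their own signals. By the brightest probe of each gene, 2.74% of all 13014 named genes compared were at least 2-fold higher and 3.41% at least 2-fold lower. In either direction, 16.8% reached 1.5-fold and 2.57% reached 3-fold. The median log2 ratio of the ligands was -0.05, against 0.02 for all named genes. KITLG, which encodes stem cell factor, fell. Its 2 spots read 68.9 and 77.5 after #1 siHOTAIR and 145 and 196 after siGFP, with a log2 ratio of -1.25 and a measurement SD of 0.16. An error taken from the spread of those spots on each array was 0.23. Of 3526 probes of like signal, 67 (1.90%) were as low or lower. The study lists KITLG as altered on these same arrays, so its fall is not independent evidence. With normexp background correction the ratio of KITLG was -0.77 and no longer 2-fold.

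EGF was higher after #1 siHOTAIR, but 1 spot carried the difference. Its spots read 12.2 and 128 against 6.02 and 11.2, and only the spot of 128 was above background. As the siGFP array gave no level for it, EGF was at least 1.34-fold higher, which is under 2-fold.

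No other ligand reached 2-fold. HBEGF, a ligand of EGFR, read 116 and 120 after #1 siHOTAIR and 64.5 and 65.0 after siGFP, a log2 ratio of 0.82 with a measurement SD of 0.16. FGF7, which acts mainly on FGFR2, a receptor outside the 10, read 67.5 against 39.6 on 1 spot, a ratio of 0.72 with a measurement SD of 0.22. PDGFA, a ligand of PDGFRA, was lower on both of its probes. The mean of its 10-spot probe was 401 against 660, with spots from 348 to 427 against 630 to 706, a ratio of -0.77 with a measurement SD of 0.04, and its other probe gave -0.65. FGF9 was lower on both probes as well, at -0.52 and -0.56.

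Further ligands are given here by receptor, chosen after their values were seen. IGF2, a ligand of IGF1R, gave 5522 and 5551 after #1 siHOTAIR and 4691 and 4769 after siGFP on 1 probe, a log2 ratio of 0.18, and 0.09 on the other. IGF1 had a ratio of 0.05. FGF2, a ligand of FGFR1, had -0.11 and -0.23, of which the first turned to 0.03 with spike-in scaling. GAS6 and PROS1, the ligands of AXL, had -0.28 and -0.10, and the ratio of PROS1 turned to 0.04 with spike-in scaling. NRG1, a ligand of ERBB3, which was itself below background, had -0.26 on 1 probe and 0.24 on the other. The spots of that other probe disagreed, with 50.7 and 131 after #1 siHOTAIR and 61.3 and 73.7 after siGFP.

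**Figure D2:**
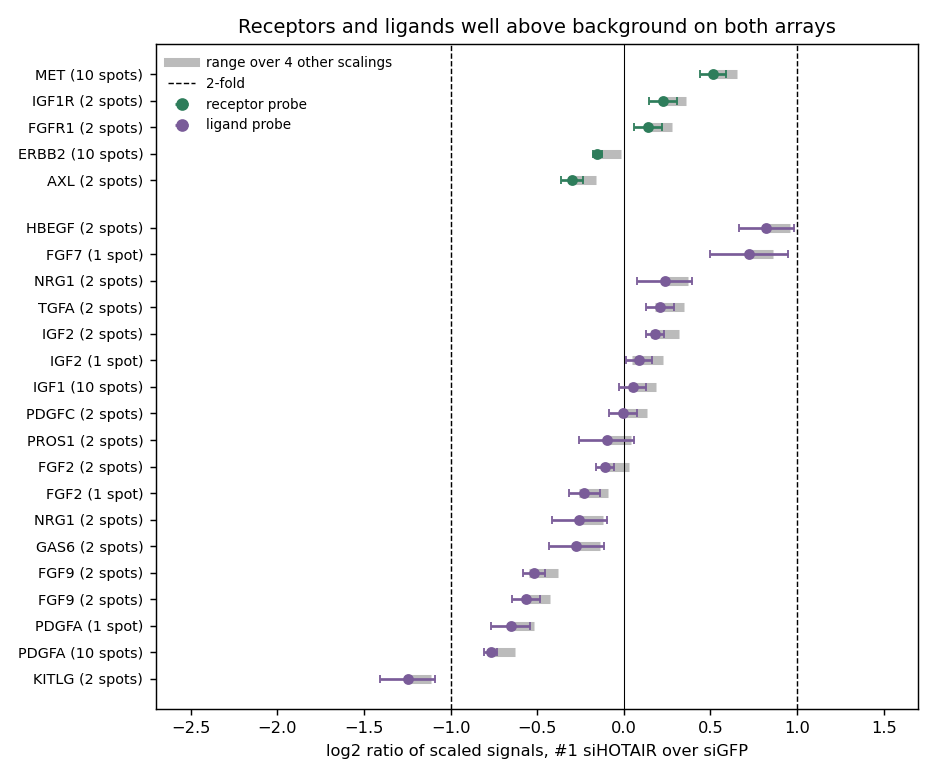
Log2 ratio of the scaled signals, #1 siHOTAIR over siGFP, of each receptor probe (green) and ligand probe (purple) that was well above background on both arrays, with the number of spots beside the gene. Points are the ratios, whiskers the measurement SD, grey bars the range over the main and 4 other scalings, and dashed lines 2-fold. Of these probes only KITLG, at -1.25, lies beyond 2-fold, and MET, at 0.52, is the highest receptor.

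Probes with 10 spots showed whether a ratio held over the array. The spots of PDGFA ran from 348 to 427 against 630 to 706, those of LRIG1, a membrane protein that promotes the breakdown of EGFR family receptors and of MET, from 253 to 304 against 143 to 172. LRIG1 had a mean signal of 271 after #1 siHOTAIR and 160 after siGFP, a log2 ratio of 0.71 with a measurement SD of 0.07. Of the 685 probes with 10 spots, 2.77% were as high or higher than LRIG1, and 5.40% were as low or lower than PDGFA. All spots of LRIG1 and MET were higher after #1 siHOTAIR, and all spots of PDGFA and ERBB2 were lower after scaling. LRIG1 was chosen for its 10 spots after its values were seen.

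**Figure D3:**
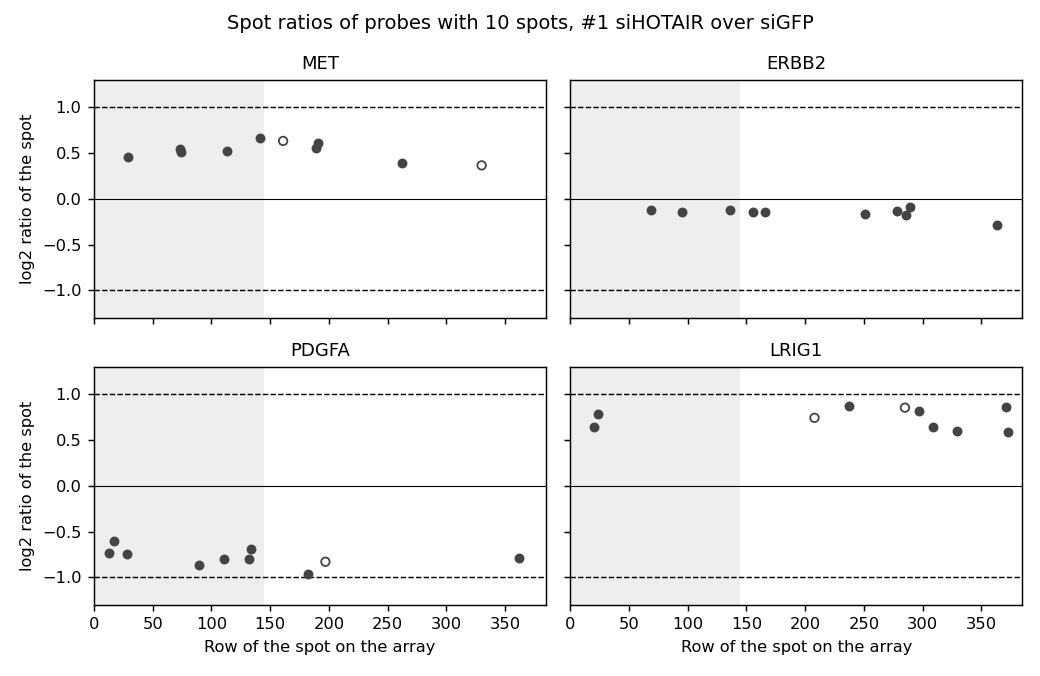
Log2 ratio of each spot, #1 siHOTAIR over siGFP, against the row of the spot on the array for MET, ERBB2, PDGFA and LRIG1, each a probe with 10 spots. Open circles are spots with an outlier mark on an array, the shaded area marks the first rows and dashed lines are 2-fold. Each probe keeps 1 sign over the array, with MET between 0.39 and 0.66 and ERBB2 between -0.28 and -0.09 in the spots used.

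Among 20 related receptors outside the 10, such as the insulin receptor and the other FGF, neurotrophin and TAM receptors, 12 could be compared and 0 changed by 2-fold. The median log2 ratio was 0.03, the same as for the 10 receptors to 2 decimals. MERTK, a relative of AXL that also binds GAS6, read 129 against 64.8 on 1 spot, a ratio of 0.94 with a measurement SD of 0.22, and it passed 2-fold only with spike-in scaling, at 1.08. INSR, the insulin receptor, had 0.51 with a measurement SD of 0.16. NTRK3, the receptor of neurotrophin-3, had -0.60 on 1 spot with a measurement SD of 0.22. TYRO3, the third TAM receptor, had -0.20 with a measurement SD of 0.06, and -0.06 with spike-in scaling. With the 75th percentile scaling AXL and TYRO3 were thus lower and MERTK higher, each by less than 2-fold.

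Of 7 genes that bind insulin-like growth factors outside IGF1R, 5 could be compared and 0 changed by 2-fold, with a median log2 ratio of 0.23. IGFBP4, a secreted binding protein, had 0.62 with a measurement SD of 0.16, and IGFBP6 had 0.23. IGFBP2 had -0.01 and IGF2R, which carries IGF2 to the lysosome, -0.12, and both turned positive with spike-in scaling, to 0.13 and 0.02.

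Among 30 adaptors and kinases downstream of the receptors, 28 could be compared, 0 rose and 1 fell by 2-fold, with a median log2 ratio of -0.07. GAB2, a docking protein that binds PI3K and SHP2, fell. It read 29.9 and 42.9 after #1 siHOTAIR, of which only the second was well above background, and 65.5 and 79.2 after siGFP. The log2 ratio was -1.05 with a measurement SD of 0.16, and -0.44 with normexp background correction. An error taken from the spread of the GAB2 spots was 0.29, and the spot ratios were -1.18 and -0.93. STAT3, a transcription factor downstream of several receptors, had 0.64 on its brightest probe, with spots of 151 and 242 against 118 and 120, and -0.02 on its probe with 10 spots. MAP2K1 and MAP2K2, which encode the kinases MEK1 and MEK2, had 0.50 and -0.29, each with a measurement SD of 0.06. HRAS had -0.26 with a measurement SD of 0.03 over 10 spots.

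Among 20 proteins that damp receptor signalling, 18 could be compared, 0 rose and 1 fell by 2-fold at its own signal. The median log2 ratio was 0.16, and 15 of the 18 lay above 0, as did 52.3% of all named genes. GRB14, an adaptor that inhibits the insulin receptor, read 22.3 and 32.5 after #1 siHOTAIR, below background, and 60.6 and 63.3 after siGFP, and was at least 1.72-fold lower. RASA1, a protein that switches RAS off, read 73.3 and 74.3 against 52.2 and 31.6, of which the last was not well above background. Its log2 ratio was 0.82, but the spot ratios were 0.44 and 1.19. DUSP5, a phosphatase of ERK, had 0.73 with a measurement SD of 0.16. DUSP6, another ERK phosphatase, named after its values were seen, read 1647 and 1790 against 989 and 1033, a ratio of 0.72 with a measurement SD of 0.06. DUSP4, of the same list, had 0.03 with a measurement SD of 0.06. The lowest ratios on both arrays were those of LRIG3 (-0.07) and ERRFI1 (-0.00), an inhibitor of EGFR, and both turned positive with spike-in scaling, to 0.07 and 0.13.

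All 16 genes that ERK signalling is known to induce were measured on both arrays, 0 rose and 1 fell by 2-fold, and the median log2 ratio was -0.02, which turned to 0.12 with spike-in scaling. EGR2, a zinc finger transcription factor, fell from 75.5 and 117 after siGFP to 45.6 and 49.8 after #1 siHOTAIR, a ratio of -1.02 with a measurement SD of 0.16. An error taken from the spread of its own spots was 0.32, and the spot ratios were -0.77 and -1.27. The ratio of EGR2 was -0.47 with normexp background correction and -0.89 with spike-in scaling, both under 2-fold. JUN, a subunit of the AP-1 transcription factor, had 480 and 486 against 856 and 883, a ratio of -0.89 with a measurement SD of 0.08. EGR1, named after its values were seen, had 3919 and 4020 against 6343 and 6571, a ratio of -0.75. IER3, an early response gene, had -0.82 on its brightest probe and -1.09 on the single spot of its other probe. ETV1 and JUNB were the highest, at 0.43 and 0.36. The ratio of ETV1 came from 1 spot, with a measurement SD of 0.22, and its other probes were below background on both arrays. JUNB had a measurement SD of 0.16, and an error taken from the spread of its own spots was 0.24. The list thus held 8 genes above and 8 below 0.

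**Figure D4:**
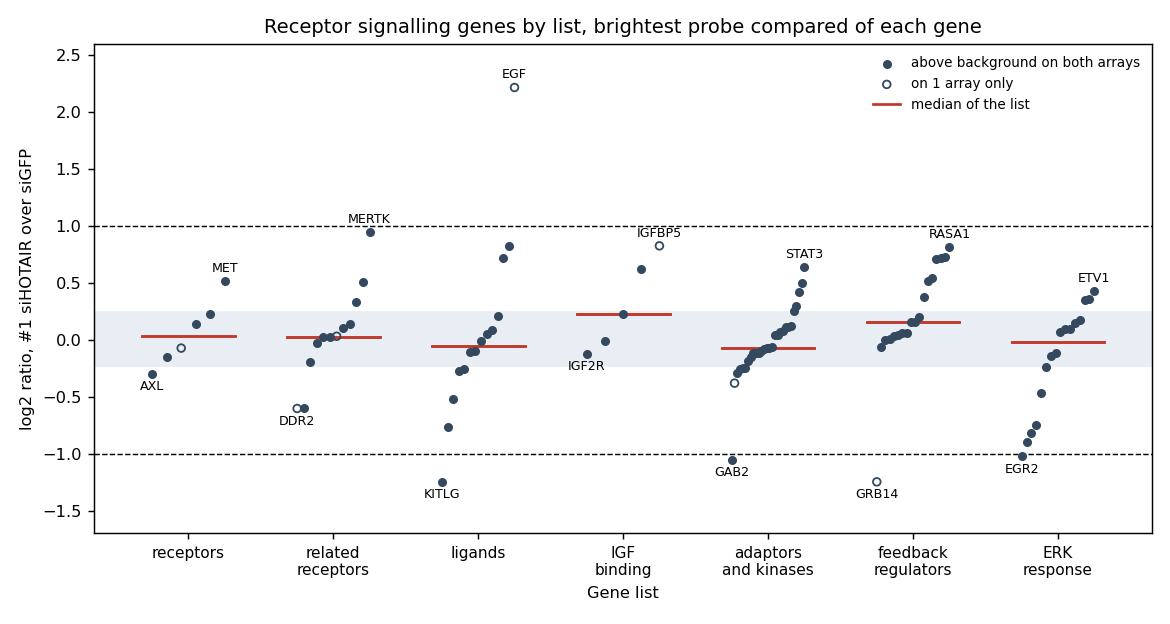
Log2 ratio, #1 siHOTAIR over siGFP, of the brightest probe compared of each gene in 7 lists of receptor signalling genes. Filled points were above background on both arrays and open points on 1 array only, red lines are list medians, the shaded band runs from -0.23 to 0.24, the quartiles of all probes compared, and dashed lines are 2-fold. The receptors lie between -0.30 and 0.52, and the points beyond 2-fold are EGF, KITLG, GAB2, GRB14 and EGR2.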

How the data were processed

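RNA of SBC-3 cells was labelled with Cy3 and hybridized by the authors to 8 x 60K expression arrays, and spots were read with Agilent Feature Extraction 10.10.1.1, per the labels. The deposited processed signal is an intensity with the background subtracted and spatial trends removed, not normalized between arrays. The deposited value table holds the background-subtracted intensity (largest difference 0). The P-value and ontology steps of the methods could not be repeated from the files.

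Each log2 signal was set against its array's 75th percentile over the 58717 non-control spots. Outliers were dropped on that array and the other spots of a probe averaged. Probes with 50% or more of their spots well above background on either array were compared (52.1% of probes on the #1 siHOTAIR array, 55.3% on the siGFP array), and called changed at 2-fold. For a probe that passed on 1 array only, a fold is a lower bound, with the dim side raised to the lowest spot well above background (37.3 or 28.6) or kept if higher. Measurement SDs come from the repeats of 10-spot probes, taken in 6 classes of signal. The number of arrays limits the precision, and no test was run.

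Probes were named by RefSeq accession through a table of GRCh38.p14 used for names (58.5% named). All receptors and every probe of theirs are described. Of each list, every gene changed at 2-fold and the 2 largest rises and falls on both arrays by the brightest probe are named, with KITLG and HOTAIR in any case. A further SCLC marker is not reported here. The receptors and lists were chosen with earlier results of these arrays known. The 14 alternatives were 4 scalings, normexp background correction (offset 50, on the median signal), the uncorrected median signal, the value table, 2 filters, thresholds of 1.5-fold and 3-fold, dim signals at their bound, leaving out the first rows of the array, and the mean of a gene's probes. Python 3.11.15, pandas 2.3.3, numpy 2.4.6, R 4.3.3 and limma 3.58.1 were used.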

Additional observations from a re-analysis of the deposited data

How the results depend on the processing

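The genes changed by 2-fold in the lists kept their sign in the alternatives run for single genes, 9 each and 8 for EGF. The counts of changed genes were run under all 14 alternatives. They rest on few dim probes, and signs near 0 turned. With normexp background correction or the uncorrected median signal, 0 genes changed among the ligands, the adaptors and kinases, the feedback regulators and the ERK response genes. KITLG then had a log2 ratio of -0.77 or -0.71, GAB2 of -0.44 or -0.38, GRB14 of -0.38 or -0.35, EGR2 of -0.47 or -0.44, EGF of 0.76 or 0.64, and HOTAIR itself of -0.77 or -0.73. With spike-in scaling, which moved the median of all probes by 0.14, the medians were 0.17 for the receptors, 0.085 for the ligands, 0.0648 for the adaptors and kinases and 0.12 for the ERK response genes, the last 3 of them below 0 with the 75th percentile, and EGFR turned from -0.07 to 0.06, while 1 related receptor and 0 adaptors and kinases or ERK response genes changed. Without scaling 0 ERK response genes changed and their median was 0.02. With probes above background on both arrays, the receptor median was 0.14, and 1 ligand and 0 feedback regulators changed, as with dim signals at their bound for both lists. With no filter, 1 receptor probe changed, an ERBB3 probe below background, and the medians were 0.18 for the receptors and 0.0691 for the ligands. At 1.5-fold, the changed genes were 3 related receptors, 5 ligands, 2 adaptors and kinases, 5 feedback regulators, 4 ERK response genes and 2 IGF binding genes, beside 16.8% of all named genes. At 3-fold, 1 ligand and 0 adaptors and kinases, feedback regulators and ERK response genes changed, beside 2.57% of all named genes. Without the spots in the first rows of the array, 1 ligand and 2 feedback regulators changed. No paired analysis was possible because there was 1 array per condition, and no array could be left out for the same reason. Signals near background limited EGFR, ERBB3, KIT, PDGFRA and PDGFRB.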

Other observations

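Several genes of the pathway had probes that disagreed. AKT2, a kinase downstream of PI3K, had log2 ratios of -0.69, 0.47 and -0.07 on its 3 probes, with signals of 93.8 against 146, 147 against 103 and 1920 against 1958. SHC1, an adaptor of most receptors, had 0.49 on a probe with 1 spot and -0.06 on its probe with 10 spots. FGFR3 had 0.02 on its brighter probe, while its other probe, with 1 spot, read 47.3 against 22.2 and was above background on the #1 siHOTAIR array only. The brightest probes were used for the lists, and the transcripts behind the probes were not compared.

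Single bright spots of the #1 siHOTAIR array lay in the first rows for EGF, NRG1, IGFBP5 and NCAM1, chosen after their values were seen, with no search over other genes. EGF read 128 in row 74 and 12.2 in row 120, both within these rows. NRG1 read 131 in row 106 and 50.7 in row 310, against 73.7 and 61.3 on the siGFP array. IGFBP5, a binding protein of the insulin-like growth factors, read 103 in row 38 and 28.5 in row 336, against 30.5 and 28.8 on the siGFP array. NCAM1, an adhesion molecule and SCLC marker, read 67.8 on a spot in these rows and 9.57 on its other spot, against 7.08 and 7.33 on the siGFP array. STAT3 differed, since its brightest probe read 151 and 242 against 118 and 120 with 0 spots in the first rows. The cause of the bright spots was not tested.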
